A study of Mus musculus with 2 samples.

Results

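The serum amyloid A genes and the strong acute-phase genes of mouse liver were followed in single liver cells of mice fed chow or a NASH diet. The members were 10 listed symbols of the 31053 genes in the deposited tables: Saa1, Saa2, Saa3, Saa4, Orm1, Orm2, Orm3, Lcn2, Hp and Hpx. All 10 were found, and all 10 passed the filter on low values (at least 10 UMIs per 1000000 non-mitochondrial UMIs in 1 library), Orm3 only narrowly and only through the chow library. They had been picked because they differed between the diets, so every value of that difference below is a description of 2 libraries and not a test. The mice were C57BL/6. The diet named for NASH (non-alcoholic steatohepatitis) was high in fructose, fat and cholesterol. Both diets lasted 6.5 weeks, and each was represented by 1 library of collagenase-digested, Percoll-separated liver cells. How many mice went into a library, and their age, were not stated in what was available. The 10x Genomics 3' kit was used, in which a unique molecular identifier (UMI) marks each captured RNA molecule near its 3' end, so that levels of different genes can be set side by side without a correction for transcript length.

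The acute-phase response is the change in the plasma proteins made by hepatocytes after infection, injury or inflammation. Interleukin-6 acts on hepatocytes through gp130 and the transcription factor STAT3, and interleukin-1 and tumour necrosis factor act through NF-kB, often together with C/EBP factors. Serum amyloid A proteins travel on high-density lipoprotein: Saa1 and Saa2 are the main forms from liver, Saa3 is also made by macrophages and fat, and Saa4 is known as the constitutive form. The Orm genes encode orosomucoid (alpha-1-acid glycoprotein), a carrier of basic and lipophilic compounds. Lcn2 encodes lipocalin-2, which binds iron-loaded bacterial siderophores, Hp encodes haptoglobin, which binds free haemoglobin, and Hpx encodes hemopexin, which binds free haem.

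The Saa genes lie in 1 cluster on mouse chromosome 7 and the Orm genes in 1 cluster on chromosome 4 (GRCm38, GENCODE M21 annotation). Saa1 spans chr7:46740497-46742980 on the minus strand, Saa2 chr7:46751790-46754313 on the plus strand, Saa3 chr7:46711998-46715700 on the minus strand and Saa4 chr7:46727998-46732603 on the minus strand. Orm1 spans chr4:63344560-63348163, Orm3 chr4:63356162-63359511 and Orm2 chr4:63362449-63365878, all on the plus strand. Lcn2 lies at chr2:32384633-32388252, Hp at chr8:109575128-109579172 and Hpx at chr7:105591613-105600137, all on the minus strand.

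Stretches upstream of 5 members are shown. The log2 ratios of NASH diet over chow lay from -5.86 to -4.45 for Saa1, Saa2, Saa3 and Orm2. That of Saa4 was -0.19. Among the 5, only the stretches of Saa1 and Saa2 are near copies. Orm2 and Orm3, the latter not shown, were 85.9% identical upstream. Their log2 ratios were -4.47 and -0.94, that of Orm3 from few UMIs. The part of upstream sequence in these ratios was not tested. RefSeq start regions (GRCm38.p6) were matched by symbol for 8 of the 10 members. Each line gives the 200 bases that end 51 bases before the RefSeq start, on the gene's strand, 5′ to 3′. The windows are chr7:46743031-46743230, chr7:46751583-46751782, chr7:46715727-46715926, chr7:46732654-46732853 and chr4:63362199-63362398. Capitals mark matches to NF-kB letters (GG, any 3 bases, TTTCC) or C/EBP letters (TTNNGNAA), searched on both strands.
Saa1: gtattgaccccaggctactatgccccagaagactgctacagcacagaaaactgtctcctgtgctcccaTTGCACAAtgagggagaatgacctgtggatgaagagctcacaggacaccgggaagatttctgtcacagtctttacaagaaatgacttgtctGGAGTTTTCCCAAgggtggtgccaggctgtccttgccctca
Saa2: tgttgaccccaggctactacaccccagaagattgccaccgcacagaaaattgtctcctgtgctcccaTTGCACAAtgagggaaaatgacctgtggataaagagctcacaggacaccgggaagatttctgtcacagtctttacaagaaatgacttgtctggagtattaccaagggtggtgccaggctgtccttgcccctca
Saa3: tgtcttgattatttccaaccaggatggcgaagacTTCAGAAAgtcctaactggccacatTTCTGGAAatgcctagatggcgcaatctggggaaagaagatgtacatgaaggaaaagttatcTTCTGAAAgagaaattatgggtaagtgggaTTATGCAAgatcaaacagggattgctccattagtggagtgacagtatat
Saa4: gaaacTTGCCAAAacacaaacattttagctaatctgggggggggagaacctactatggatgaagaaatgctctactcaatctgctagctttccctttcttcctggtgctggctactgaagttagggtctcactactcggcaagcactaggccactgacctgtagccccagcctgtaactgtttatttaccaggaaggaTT
Orm2: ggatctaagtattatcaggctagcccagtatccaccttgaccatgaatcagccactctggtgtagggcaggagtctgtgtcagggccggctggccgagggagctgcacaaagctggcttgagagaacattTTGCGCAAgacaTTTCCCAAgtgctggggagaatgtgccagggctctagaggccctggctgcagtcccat

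The upstream stretches of Saa1 and Saa2 were 94.8% identical over 250 bases, and those of Orm2 and Orm3 85.9%. Between Saa1 and Saa3 the identity was 52.2%, and between Saa1 and Saa4 it was 49.5%. With genes of other families Saa1 reached as much: 54.5% with Orm2, 54.9% with Orm3, 53.5% with Lcn2 and 49.7% with Hpx. The Saa3 and Saa4 values are therefore not read as likeness. The NF-kB letters were found in 1 of the 8 members, Saa1, as GGAGTTTTCC at 91 to 82 bases before the start, where they overlap a C/EBP match at 86 to 79. C/EBP letters were found in all 8, with 4 matches in Saa3, the most of any of the 8. The last letters TT of the Saa4 line begin a match at 52 to 45 bases before the start that runs on past the window. No STAT3 letters (TTCNNNGAA) were found in these 8 windows. Of 32851 start regions searched over the same length, 4.63% held the NF-kB letters, 36.8% the C/EBP letters and 7.02% the STAT3 letters. The letters were chosen with the sequences in view, a match is a description of letters, and a window without a match shows only that those letters are not in it.

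Members of these families can share reads. In the last 400 bases of the annotated transcripts, 0 of 310 windows of 91 bases were identical between Saa1 and Saa2, whose transcripts were 87.3% identical as a whole. Orm1 and Orm2 shared 65 of 310 windows (21.0%), so their separate values are uncertain. For this reason the sum of Saa1 and Saa2, and the sum of the Orm genes, are given beside the single genes.

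The chow library held 71635757 UMIs over 7359 barcodes and the NASH diet library 39440182 over 5881, and 69 barcode sequences occurred in both. Hepatocyte-like cells were barcodes with at least 5000 non-mitochondrial UMIs, at most 30% mitochondrial UMIs, at least 8 of 10 hepatocyte markers and no other cell class, and no member entered that choice. They numbered 1966 in chow against 1043 in the NASH diet library, with 80 and 77 barcodes within 1000 UMIs of the UMI limit. Their median non-mitochondrial depth was 21169 and 16012 UMIs, and their median mitochondrial share 18.5% and 23.5%. All 10 hepatocyte markers were read in both libraries, while the endothelial, Kupffer, T and NK, B and neutrophil lists each had a median of 0 UMIs over cells. Of the cholangiocyte list, 7 of 8 markers were read in each library and any UMI of it occurred in 59.0% of chow against 33.9% of NASH diet cells. The erythroid list, of which 4 and 5 of 6 markers were read, had a UMI in 59.6% and 64.0% of cells, with medians of 40.8 and 60.2 CPM. The part of these lists in the differences below was not tested.

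Serum amyloid A transcripts were among the most abundant of the chow hepatocyte-like cells and scarce in the NASH diet library. Levels here are UMIs per 1000000 non-mitochondrial UMIs (CPM), summed over hepatocyte-like cells, and log2 ratios are NASH diet over chow with 1 CPM added. Saa2 stood at 21518 CPM in chow against 369 under the NASH diet, a log2 ratio of -5.86 (exact 95% interval -5.90 to -5.83). Saa1 stood at 19286 and 879 CPM, a log2 ratio of -4.45 (-4.48 to -4.43). In chow Saa2 was the more abundant of the pair, and in the NASH diet library Saa1 was. The sum of both fell from 40804 CPM in chow to 1248 CPM, a log2 ratio of -5.03 (-5.05 to -5.01) and a 32.7-fold lower level. These intervals cover counting error only: with 1 library per diet no difference could be set against a spread between mice.

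Saa3 was lower by a similar factor from a much lower level. It stood at 742 CPM in chow against 13.3 in the NASH diet library, the latter from 237 UMIs, a log2 ratio of -5.70. Saa4, the constitutive form, stood at 823 and 723 CPM, a log2 ratio of -0.19 (-0.22 to -0.16). The 4 genes of the cluster therefore ranged from a 1.14-fold to a 58.2-fold lower level in the NASH diet library.

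Of the orosomucoid genes, Orm1 carried most of the UMIs. It stood at 7409 CPM in chow against 1180 under the NASH diet, a log2 ratio of -2.65. Orm2 stood at 851 and 37.6 CPM, a log2 ratio of -4.47. Orm3 was close to the floor in both, with 440 UMIs in chow against 89 in the NASH diet library, or 10.5 and 5.01 CPM. Its log2 ratio was -0.94, and it was the 1 ratio among the members that changed sign with the processing: with a mitochondrial limit of 15% it was 0.41. The sum of the 3 Orm genes went from 8271 to 1222 CPM, a log2 ratio of -2.76.

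The metal, haemoglobin and haem binders differed among themselves. Lcn2 stood at 2618 CPM in chow against 134 under the NASH diet, a log2 ratio of -4.28 and a 19.4-fold lower level. Hp stood at 12289 and 2850 CPM, a log2 ratio of -2.11. Hpx stood at 16227 and 3696 CPM, a log2 ratio of -2.13. Hp and Hpx were thus each a little over 4-fold lower, and with a mitochondrial limit of 15% their log2 ratios were -2.81 and -3.54. Saa3 and Lcn2 also moved by over 1.5 times with that limit, to -7.05 and -4.99. At the main limit Hp and Hpx were the most abundant members in the NASH diet library, ahead of Orm1 and Saa1. All 10 members together held 8.18% of the non-mitochondrial UMIs in chow against 0.989% in the NASH diet library. Alb, which encodes albumin, stood at 31025 and 47200 CPM.

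Of the 10 members, 8 were lower by 2-fold or more in the NASH diet library, where 2.25% of the 7024 genes at 10 CPM or more in 1 library were. Since the members were chosen from this contrast, nothing is read from that count. The median log2 ratio of the members was -3.46, and that of all 7024 genes 0.19. Ordered from the lowest ratio of the 7024, Saa2 was at place 2, Saa3 at 3, Orm2 at 7, Saa1 at 8 and Lcn2 at 9. Orm1 was at place 28, Hpx at 41, Hp at 45, Orm3 at 172 and Saa4 at 995.

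**Figure D1:**
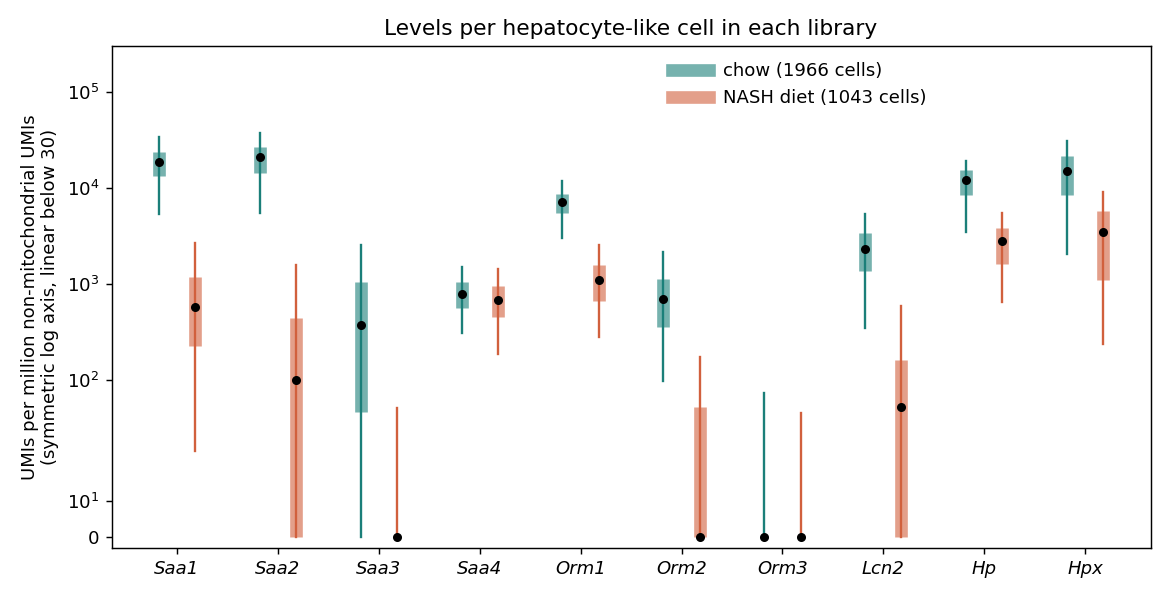
Level of each member per hepatocyte-like cell, in UMIs per 1000000 non-mitochondrial UMIs on a symmetric log axis that is linear below 30, for 1966 chow and 1043 NASH diet cells; points are medians over cells, thick bars the 25th to 75th percentile and thin lines the 5th to 95th percentile. The thick bars lie apart between the libraries for every member except Saa4 and Orm3, and those of Saa4 overlap almost fully. In 0.712% of all 7024 genes they lie apart with the NASH diet library lower, and as the members were chosen from this contrast nothing is read from their 8 of 10.

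The difference was also read within cells of like quality. Among cells with 0 to 10% mitochondrial UMIs (137 chow and 113 NASH diet cells) the log2 ratio of Saa1 plus Saa2 was -4.77, among those with 10 to 20% (1159 and 176) it was -5.23, and among those with 20 to 30% (670 and 754) it was -4.78. Across bins of 5000 to 10000, 10000 to 20000 and 20000 to 40000 non-mitochondrial UMIs it was -5.17, -4.91 and -5.00, and in the 20 chow and 8 NASH diet cells above that it was -6.00. Barcodes left out of the hepatocyte-like class were read as well. In low-UMI droplets (under 2000 non-mitochondrial UMIs, 1972 in chow against 989 in the NASH diet library) the log2 ratio was -6.57 for Saa2, -5.20 for Saa1, -5.12 for Lcn2 and -2.80 for Hp. Saa4 was at -1.18 there, a larger difference than in hepatocyte-like cells. Orm3 was at 0.05 there, and at 0.29 in barcodes of no class.

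Other genes of the response were read from lists that were drawn up with results of these data known. Of 26 other positive acute-phase genes at 10 CPM or more, 19 were lower by 2-fold or more in the NASH diet library and 1 higher. Of all genes 2.25% and 3.84% were. As the list was drawn up with results known, nothing is read from these counts. The median log2 ratio of the 26 was -1.56. Apcs, which encodes serum amyloid P, went from 1707 to 88.0 CPM, a log2 ratio of -4.26. Fgl1, a secreted fibrinogen-like protein, was at -2.85, the metallothionein Mt2 at -2.70 and Serpina1e, an alpha-1-antitrypsin gene, at -2.28. The fibrinogen chains Fga, Fgb and Fgg were at -1.60, -1.51 and -1.52. The 1 gene above 2-fold higher was Hamp2, a hepcidin gene, at 7.01 and 34.4 CPM. It passed the filter on low values only through the NASH diet library. Hamp2 and the fibrinogen chains were picked for mention after their values were seen.

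Genes of interleukin-6 and interleukin-1 signalling were read next. Of 20 read at 10 CPM or more, 2 were lower by 2-fold or more and 0 higher, where 2.25% and 3.84% of all genes were, with a median log2 ratio of -0.19. Il1r1, the interleukin-1 receptor, stood at 118 CPM in chow against 26.7 under the NASH diet, a log2 ratio of -2.11. Socs3, an inhibitor of STAT3 signalling that STAT3 itself induces, stood at 76.7 and 24.5, a log2 ratio of -1.61. Bcl3, an IkB family member, stood at 70.4 and 34.8 CPM, just short of the 2-fold mark, and Cebpb, a C/EBP factor, had a log2 ratio of -0.80.

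Among 9 measured partners and receptors of the members, 1 was lower by 2-fold or more, where 2.25% of all genes were. It was Tlr2, a receptor reported to bind serum amyloid A, at 13.0 CPM in chow against 1.46 in the NASH diet library. Tlr2 passed the filter on low values only through the chow library, and had 26 UMIs in the NASH diet library. Lrp1, the receptor for haem-hemopexin complexes, was at -0.52, Lcat, which esterifies cholesterol on high-density lipoprotein, at -0.33 and the protease gene Ctsb at 0.59. Of 18 other secreted liver proteins, which include negative acute-phase proteins, 0 passed 2-fold in either direction, with a median of 0.04. Of all genes 2.25% were lower and 3.84% higher by as much. The count of 0 is near those shares, and nothing is read from it. Rbp4 (retinol-binding protein) was at 0.83, Trf (transferrin) at -0.80, Ambp at -0.81 and Vtn (vitronectin) at -0.86. Of 8 transcripts known to rise during tissue dissociation, 0 passed 2-fold in either direction, with a median of -0.24. That count is near the same shares of all genes, and nothing is read from it either. Egr1, at 125 CPM in the NASH diet library, was just short of 2-fold lower there, Zfp36 was at -0.75, Junb at -0.70, Fos at -0.35 and Jun at -0.13, and Hspa1b was at 0.00, Dusp1 at 0.09 and Ier2 at 0.10. Hspa1a, below the filter, had 12 UMIs in chow against 59 in the NASH diet library. Of the nuclear RNAs, Malat1 was at 0.39, Neat1 at -0.23 and Mlxipl at 0.06.

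The major serum amyloid A transcripts were next described cell by cell. Every chow low-UMI droplet (median 611 UMIs) also held Saa1 and Saa2 UMIs, at 22127 and 33671 CPM, above the level of hepatocyte-like cells, and 98.3% of chow endothelial-like cells had a Saa1 UMI. The share of cells with a UMI therefore cannot tell a cell's own RNA from free RNA in the droplets, and it is not read as expression. Cells were thinned to 5000 non-mitochondrial UMIs each so that their depth was equal. The sum of Saa1 and Saa2 then had a median of 197 UMIs per chow cell, with the 5th and 95th percentiles at 56 and 360, and each of the 1966 cells held at least 2. NASH diet cells had a median of 4 UMIs, with 0 and 20 at the same percentiles. There 137 of 1043 cells (13.1%) had no UMI of either gene after thinning, and 96.4% had at least 1 before it. The distributions barely met: 2 of the 1043 NASH diet cells reached the 5th percentile of chow, and 1 of the 1966 chow cells was at or below the NASH diet median.

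The other members separated the cells of both libraries to different degrees. Orm1 had a median of 35 thinned UMIs in chow against 5 in the NASH diet library, and 57 NASH diet cells (5.46%) reached the chow 5th percentile of 14. Hp had medians of 60 and 14, and 358 NASH diet cells (34.3%) reached the chow 5th percentile of 17. Hpx had medians of 76 and 17, and 699 NASH diet cells (67.0%) reached its chow 5th percentile of 9. Saa4 had medians of 4 and 3, and 958 NASH diet cells (91.9%) reached its chow 5th percentile of 1. At or above the chow median were 497 NASH diet cells (47.7%) for Saa4. For Saa1 plus Saa2, Orm1, Hp and Hpx 0 were. By the chow 5th percentile, the overlap was thus small for Saa1 plus Saa2 and Orm1, larger for Hp and Hpx, and largest of these for Saa4.

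**Figure D2:**
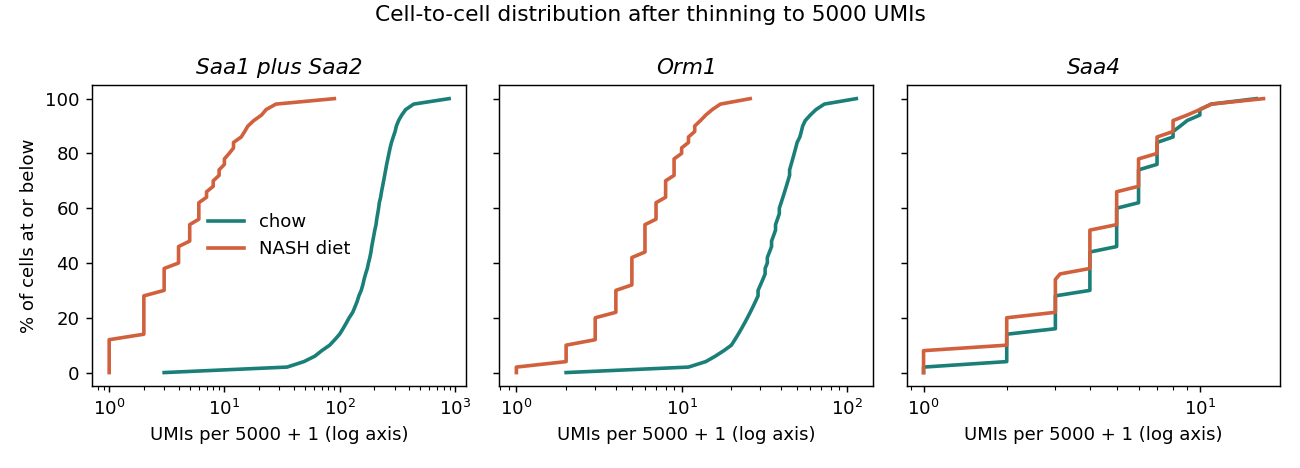
Share of hepatocyte-like cells (%) at or below a given number of UMIs per 5000 thinned UMIs, plus 1 on a log axis, for Saa1 plus Saa2, Orm1 and Saa4, with 1 curve per library. The chow and NASH diet curves of Saa1 plus Saa2 have medians of 197 and 4 UMIs and hardly meet, and those of Saa4 have medians of 4 and 3 and run together.

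The members also differed in how evenly the cells of 1 library carried them. The coefficient of variation (CV, SD over mean across cells) of thinned Saa1 plus Saa2 was 0.480 in chow, 6.80 times its Poisson value, and 1.25 in the NASH diet library, 3.12 times. The median ratio of CV to Poisson value over genes with a mean of 0.5 or more was 1.09 in chow (1256 genes) and 1.10 in the NASH diet library (1406 genes). That ratio rises with the level of a gene, so genes within 1.5-fold of a member's mean are the closer comparison. In chow Saa1 had a CV of 0.486, above 5 of 8 genes of like level, and Orm1 a CV of 0.404, above 5 of 13. Hpx had a CV of 0.591, above 11 of 12 such genes, and Lcn2 a CV of 0.671, above 29 of 29. Under the NASH diet Saa1 had a CV of 1.14, above 136 of 143 genes of like level, and Saa2 a CV of 1.94, above 359 of 361.

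Saa3 was the most unevenly carried of the better-read members. In chow 79.7% of cells had a Saa3 UMI before thinning. Low-UMI droplets of chow also carried Saa3, with a UMI in 53.6% of them and at 1246 CPM, above the 742 of hepatocyte-like cells. The share of cells with a UMI is therefore not read as expression. The 10% of cells with most Saa3 held 43.5% of its thinned UMIs, against 19.7% for Saa1 and 18.0% for Orm1. Its CV was 1.43, above 167 of 171 genes of like level. Saa4, at a mean of 4.12 thinned UMIs close to the 3.58 of Saa3, had a CV of 0.609, below the median of 0.665 of its like genes. Orm2, at a mean of 4.24, had a CV of 0.968, above 132 of 145. Of the NASH diet cells, 65 of 1043 (6.23%) had a Saa3 UMI, and 1 cell held 20.3% of its 237 UMIs. Saa3 and Lcn2 were both read there in too few UMIs per cell, with means of 0.05 and 0.68 after thinning, for their spread over single cells to be described, and the NASH diet values of Lcn2 by cell group and by correlation below rest on the same few UMIs.

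Chow cells high in Saa1 and Saa2 were high in most other members. Cells were ordered by thinned Saa1 plus Saa2 and the top 10% (197 cells, mean 388 UMIs) were set beside the bottom 10% (197 cells, mean 52.3 UMIs). Lcn2 had means of 21.1 and 2.53 UMIs, a log2 ratio of 3.05, and Saa3 means of 6.71 and 0.579, a log2 ratio of 3.51. Hpx was at 1.92, Hp at 1.70, Orm1 at 1.66 and Orm2 at 1.61, while Saa4 had means of 4.22 and 4.25, a log2 ratio of -0.01. Of all 1254 genes with a mean of 0.5 or more besides Saa1 and Saa2, 2.47% were higher by 2-fold or more in the top 10%. These cells also differed in quality: the top 10% had a median of 23082 non-mitochondrial UMIs and 15.8% mitochondrial UMIs, and the bottom 10% had 16518 and 19.6%. The part of those values in the result was not tested.

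In the NASH diet library the same ordering spanned far fewer UMIs. Its top 10% of cells by Saa1 plus Saa2 had a mean of 24.0 UMIs (104 cells), and its bottom 10% had 0, taken from the 137 cells at 0. Lcn2 was higher in the top 10% by 3.15 on the log2 scale, with means of 2.05 and 0.221 UMIs. Orm1 was at 0.90, Saa4 at 0.83, Hp at 0.81 and Hpx at 0.49. Orm2 and Saa3 were at 2.45 and 2.30 from few UMIs, with top 10% means of 0.519 and 0.0865. Of 1404 genes, 0.641% were higher by 2-fold or more. Here the median depth at both ends was close, at 16259 and 16015 UMIs, and so was the mitochondrial share, at 23.9% and 23.2%. The nuclear RNA Malat1 was not, at 1477 CPM in the top against 2552 in the bottom 10%. Its part in the result was not tested.

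Pairs of members were described by Spearman correlation across thinned cells of 1 library. These cells share a library and its free RNA, and no p is given. In chow 9 members had a mean of at least 0.5 thinned UMIs, and their 36 pairs had a median correlation of 0.37 (from -0.14 to 0.90), where the median over all pairs of 1256 genes was 0.01. Of the 36, 21 reached 0.3, as did 0.305% of all pairs. Saa1 and Saa2 were at 0.90 and Hp and Hpx at 0.80. Orm1 was at 0.65 with Saa1, 0.56 with Lcn2 and 0.58 with Hp. Saa4 lay between -0.14 (with Hpx) and 0.07 (with Orm2), apart from its neighbours in the same gene cluster.

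In the NASH diet library 7 members had a mean of 0.5 or more, and their 21 pairs had a median correlation of 0.22 (from -0.11 to 0.70). Of these, 7 reached 0.3, as did 0.624% of all pairs. Hp and Hpx were again close, at 0.70, and Saa1 and Saa2 were at 0.53. Saa4 was at 0.25 with Saa1 there, against 0.02 in chow. Lower counts by themselves lower a correlation, and the correlations of the libraries were not compared beyond these values.

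**Figure D3:**
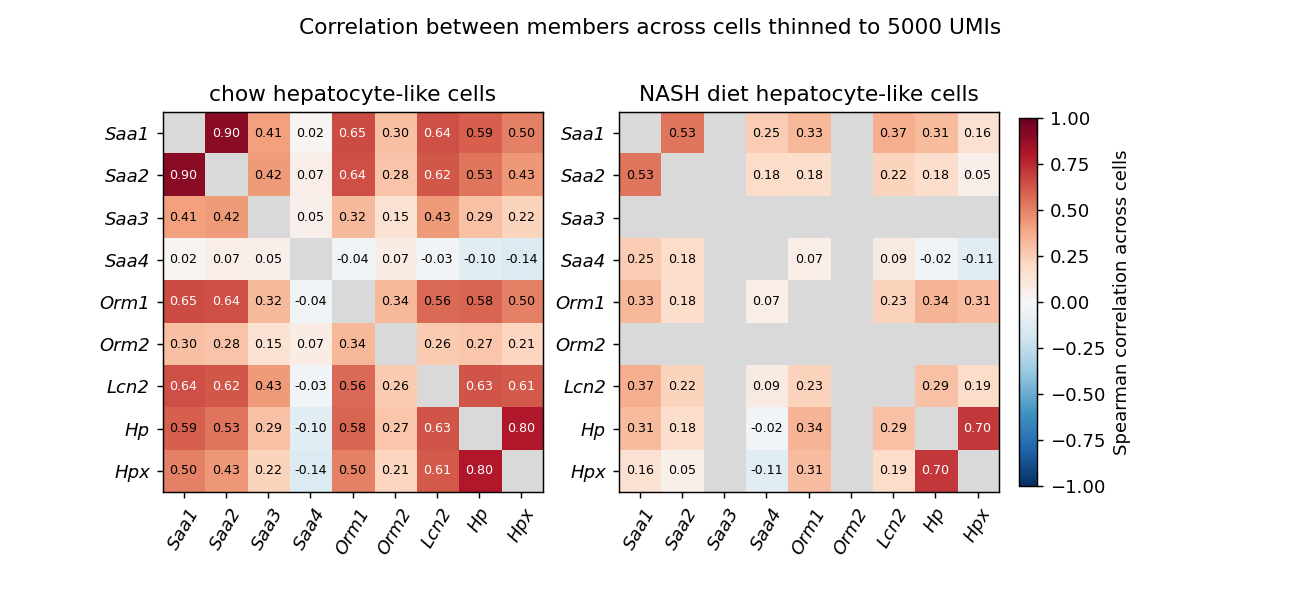
Spearman correlation between members across hepatocyte-like cells thinned to 5000 non-mitochondrial UMIs, in chow (left) and the NASH diet library (right); grey fields are pairs of a gene with itself or with a member under a mean of 0.5 UMIs. Saa1 with Saa2 and Hp with Hpx are the darkest fields in both panels, and the row of Saa4 is pale in chow.

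By the rule for naming like genes, the 5 non-members with the highest correlation with Saa1 plus Saa2 in chow were the metallothionein Mt1 (0.49), Itih4 (0.47), Apcs (0.47), Mt2 (0.45) and the fibrinogen chain Fgg (0.42), over 1966 cells. In the NASH diet library they were Mt1 (0.35), Lrg1 (0.26), the protease inhibitor Serpina3n (0.25), Fga (0.24) and the major urinary protein Mup3 (0.23), over 1043 cells. Among members in chow, Orm1 was at 0.66, Lcn2 at 0.64, Hp at 0.57, Hpx at 0.47 and Saa3 at 0.43 with the same sum. The 24 other acute-phase genes with a mean of 0.5 or more had a median of 0.27 in chow, with 22 above 0, and the 17 other secreted proteins a median of 0.07. The median over 1256 genes was -0.06. Saa1 plus Saa2 was also correlated with the mitochondrial share of a chow cell, at -0.26, and with its depth before thinning, at 0.15. In the NASH diet library these were 0.04 and -0.01.

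Along the liver lobule, blood runs from the portal to the central side, and hepatocytes differ with their place. Cells of each library were ordered by a score of 12 periportal against 12 pericentral genes, none of them a member, and cut into 3 groups of like size, called pericentral, middle and periportal. Genes held out of the score followed it. In chow the central gene Glul (glutamine synthetase) stood at 897 CPM in the pericentral and 37.2 in the periportal group, and the portal gene Sds (serine dehydratase) at 7.57 and 387. Among NASH diet cells Glul stood at 3064 and 25.5 and Sds at 11.4 and 803. Of the other held-out genes, Slc1a2, Axin2, Lgr5 and Cyp7a1 were lower and Hal, Cdh1, Sult5a1 and Pigr higher in the periportal group in both libraries.

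Hpx and Lcn2 leaned most to the periportal side. In chow Hpx stood at 9012 CPM in the pericentral, 18282 in the middle and 21231 in the periportal group, a log2 ratio of periportal over pericentral of 1.24. Under the NASH diet Hpx stood at 1503, 4671 and 5480, a log2 ratio of 1.87. Lcn2 stood at 1701, 2687 and 3432 CPM in chow (1.01) and at 71.7, 172 and 174 in the NASH diet library (1.27). Hp was at 0.51 and 0.79 on the same scale and Orm1 at 0.30 and 1.14. Alb, for comparison, was at 1.58 and 1.47.

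Saa1 and Saa2 leaned to the periportal side by less. Their sum stood at 34426, 42194 and 45626 CPM in the 3 chow groups, a log2 ratio of 0.41, so that the groups were within 1.5-fold of each other. Under the NASH diet the ratio was 0.48 for Saa1 and 0.43 for Saa2, and the middle group was the highest for both. Saa2 there was not steady over mitochondrial bins, at 2.08, -0.90, 0.41 and 0.13 from the lowest to the highest share, while Saa1 lay from 0.20 to 1.18. Saa3 was at 0.61 in chow against 0.01 in the NASH diet library, the latter with an interval of -0.43 to 0.44. The members lower in the periportal group of both libraries were Saa4 (-0.20 and -0.10), Orm2 (-0.30 and -0.45) and Orm3 (-1.54 and -1.21). Of the 10 members, 3 in chow against 4 in the NASH diet library were higher by 1.5-fold or more in the periportal group, where 3.74% and 4.18% of all genes were, and 1 in each was lower by as much, where 8.16% and 14.0% were. The median over all genes was -0.17 in chow against -0.18 in the NASH diet library.

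The zone values depended on the mitochondrial share of the cells for some members. In chow, among cells with 0 to 15% mitochondrial UMIs, the ratio of Saa1 was 0.55, and among cells with 25 to 30% (98 pericentral and 27 periportal cells) it was -0.01. Over the same bins Hpx went from 1.98 to 0.84, and Orm2 from 0.43 to -0.88. In the NASH diet library Hpx was at 2.06 among cells with 15 to 20% and at 2.13 among those with 20 to 25%, and stood at 1458 and 5835 CPM among those with 25 to 30%, but at -0.31 among the 54 pericentral and 48 periportal cells with 0 to 15%. Hp behaved likewise, at -0.12 in that bin, and so did Alb, at -0.51. Lcn2 and Orm1 kept their periportal side in that bin, at 1.93 and 1.47.

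The diet ratio was also read within each zone group. For Saa1 plus Saa2 it was -5.18 in the pericentral, -4.75 in the middle and -5.12 in the periportal group. For Lcn2 it was -4.55, -3.96 and -4.29, and for Hp -2.29, -1.98 and -2.01. Orm1 had the widest range of the more abundant members, from -3.15 in the pericentral to -2.31 in the periportal group. Saa3 was at -5.17, -6.20 and -5.77 and Orm3 at -1.27, -0.48 and -0.95, both from few UMIs in the NASH diet library. All 10 members were lower in the NASH diet library in each of the 3 groups. As they were chosen from this contrast, nothing is read from that count.

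**Figure D4:**
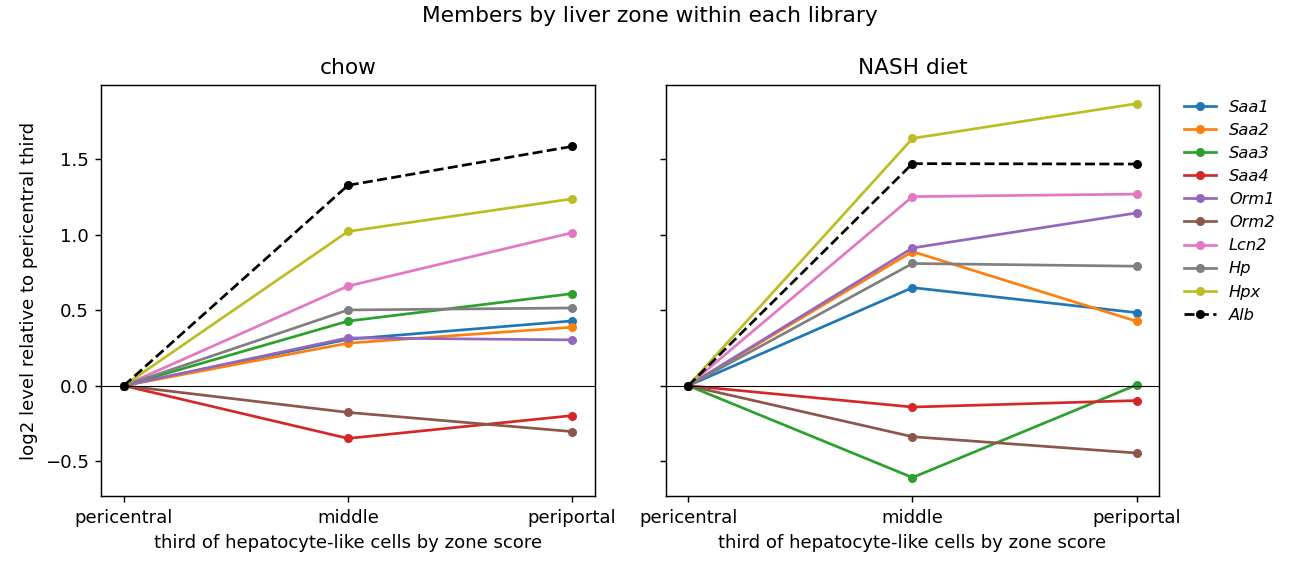
Level of each member except Orm3 in 3 groups of hepatocyte-like cells by zone score, as the log2 level relative to the pericentral group of the same library, with Alb as a dashed line. Hpx and Lcn2 end at 1.24 and 1.01 in chow and at 1.87 and 1.27 in the NASH diet library, and Saa4 and Orm2 end below 0 in both.

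Members were also read in cells that are not hepatocytes, where free hepatocyte RNA in the droplets has to be set beside them. Low-UMI droplets were taken as a reference for it. They were not empty droplets: each had at least 500 UMIs and at least 3 of the 10 hepatocyte markers, a list that holds Alb. Whether all of their RNA was free RNA was not tested. In chow they held 402 Saa2 UMIs per 100 Alb UMIs, where hepatocyte-like cells held 69.4, and 264 Saa1 UMIs where those held 62.2. Hpx was at 84.3 and 52.3 per 100 Alb UMIs. A level per Alb UMI in another cell class was therefore set beside low-UMI droplets, a choice made after the data were seen, as well as beside hepatocyte-like cells.

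Set beside low-UMI droplets, endothelial-like and Kupffer-like cells of chow carried members at or below the level of those droplets, Saa3 and Orm3 in endothelial-like cells aside. In 60 endothelial-like cells (median 3769 non-mitochondrial UMIs) Saa1 was at 2859 CPM, with a UMI in 98.3% of cells, and per Alb UMI it was at 0.893 times the low-UMI droplets. Saa2 was at 0.837, Orm1 at 0.755 and Hpx at 0.878 times. Saa3 was at 1.60 times, but 69.6% of its 69 UMIs came from 1 cell, and without that cell it was at 0.636. Orm3 was at 2.66 times, from 1 UMI. In 71 Kupffer-like cells (median 4421) the members lay at 0.283 (Saa2) to 0.503 (Hpx) times, Orm3 aside, which had 0 UMIs. However, 54.6% of the 606 Alb UMIs of those cells came from 1 cell. Without it, in an alternative added after seeing the data, they lay at 0.554 (Hp) to 0.845 (Hpx) times. Beside hepatocyte-like cells, 8 of 10 members in chow endothelial-like cells were 2-fold or more higher per Alb UMI, as were 95.1% of all genes, and beside low-UMI droplets 1 of 10 was, as were 88.3%. In Kupffer-like cells 0 of 10 were, by either measure, where 94.7% and 87.6% of all genes were. Without the cell rich in Alb, 6 of 10 were beside hepatocyte-like cells, Saa2 at 3.49 and Saa1 at 2.66 times among them, and 0 of 10 beside low-UMI droplets.

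Counts were small in the NASH diet library. The 52 endothelial-like cells held 7 Saa1, 11 Saa2, 26 Orm1 and 27 Hp UMIs, and 0 Saa3 UMIs, which allows up to 8.50 CPM by a floor of 3 UMIs. The 42 Kupffer-like cells were shallower, with a median of 1127 non-mitochondrial UMIs against 4767 in endothelial-like cells. They held 15 Saa1, 44 Hp and 26 Hpx UMIs. Their 0 Saa3 UMIs allow a level above that 8.50 CPM, so Saa3 is not read as absent there. Per Alb UMI, 4 of 10 members in endothelial-like and 3 of 10 in Kupffer-like cells were 2-fold or more above hepatocyte-like cells (95.2% and 89.4% of all genes), and 0 of 10 in both were above low-UMI droplets (89.3% and 77.9%). The 14 monocyte or dendritic-like cells held 63 Hp UMIs, 3.32 times the low-UMI droplets per Alb UMI, of which 63.5% came from 1 cell. They also held 5 Saa3 UMIs in 3 cells.

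Lcn2 stood apart in neutrophil-like cells. Lipocalin-2 is a known protein of neutrophil granules, and haptoglobin is also stored there. In 8 chow neutrophil-like cells Lcn2 was at 4559 CPM, above the 2618 of hepatocyte-like cells, with UMIs in 8 of 8 cells. Per Alb UMI that was 11.3 times the low-UMI droplets (interval 9.14 to 13.9), while Saa1 was at 0.701, Saa2 at 0.607 and Hpx at 0.523 times. Hp was at 1.55 times (1.22 to 1.94). In 3 NASH diet neutrophil-like cells Lcn2 was at 3111 CPM from 31 UMIs, 80.6% of them in 1 cell, where hepatocyte-like cells had 134. Hp was at 3211 CPM there, from 32 UMIs in 3 of 3 cells and 7.86 times the low-UMI droplets per Alb UMI.

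The count of members above 2-fold in neutrophil-like cells is read against all genes. Beside low-UMI droplets 1 of 10 members in chow, and 3 of 10 (Lcn2, Hp and Hpx) with the NASH diet, were 2-fold or more higher per Alb UMI, as were 44.8% and 29.3% of all genes. Beside hepatocyte-like cells 7 and 5 were, as were 46.9% and 31.4%. The Hpx value rested on 5 UMIs of 1 cell. With 8 and 3 cells, neutrophil-like cells can be described only as far as these counts go. Without the cell with most Lcn2, the NASH diet level was 1069 CPM from 6 UMIs of 2 cells, 53.2 times the low-UMI droplets per Alb UMI.

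**Figure D5:**
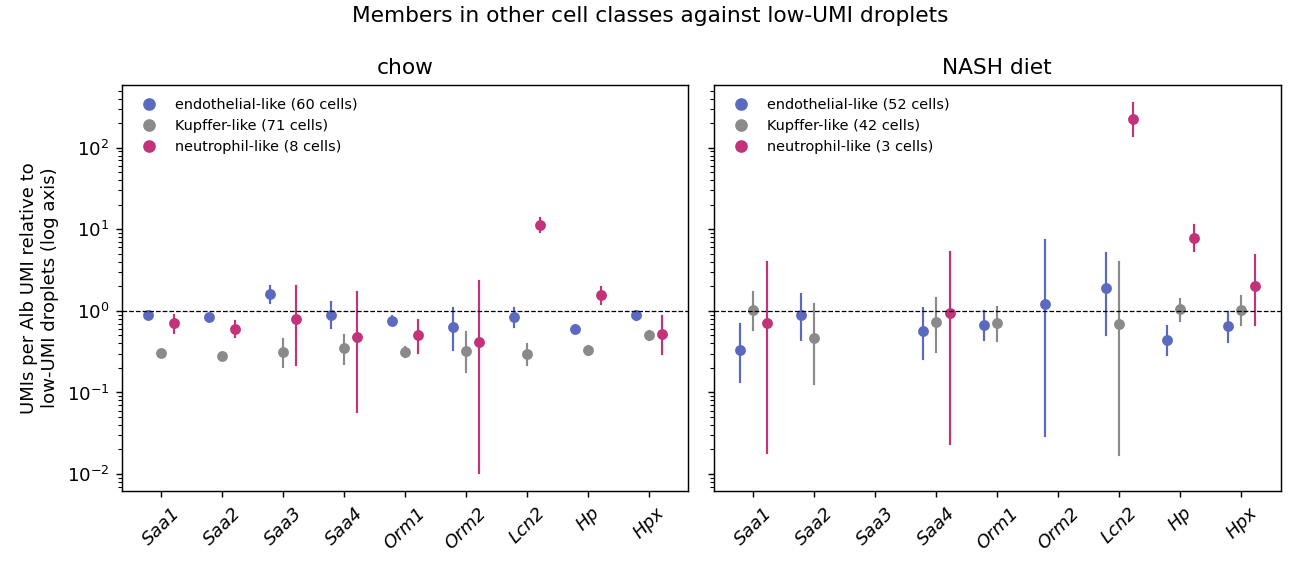
UMIs per Alb UMI of each member except Orm3 in endothelial-like, Kupffer-like and neutrophil-like cells relative to low-UMI droplets of the same library, on a log axis, with exact 95% intervals for counting error; a class with 0 UMIs of a member has no point. Lcn2 in neutrophil-like cells lies at 11.3 in chow, and the points of endothelial-like and Kupffer-like cells in chow lie from 0.283 to 1.60.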

How the data were processed

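Per the file headers the deposited matrices hold UMI counts, not normalized, written by software version 3.0.2; the submitters' processing notes name Cell Ranger 3.1.0, Seurat and build mm10. The members and gene lists were chosen with earlier results of these data known. Named are all 10 members, the 5 non-members most correlated with Saa1 plus Saa2 per library, the 4 genes of each list with the largest diet ratio, and the held-out zone genes.

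Barcodes with at least 200 genes, 500 UMIs and at most 30% mitochondrial UMIs were kept. A non-parenchymal class needed 3 detected markers and 0.3% of non-mitochondrial UMIs in its markers. Levels are summed UMIs per 1000000 non-mitochondrial UMIs, with 1 added for log2 ratios. Thinning drew 5000 UMIs per cell (seed 0). With 1 library per diet no test was made, and exact 95% Poisson or binomial (Clopper-Pearson) intervals cover counting error only. Doublets were not removed in the main values: Scrublet (scanpy 1.11.5) called 0 by its own threshold, and an alternative took out its highest scores, 139 chow and 14 NASH diet hepatocyte-like cells. Python 3.11.15, numpy 2.4.6 and scipy 1.17.1 were used, and calculations were tested on simulated data. A merged deposited matrix, with 86.4% of the chow UMIs, was an alternative only.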

Additional observations from a re-analysis of the deposited data

How the results depend on the processing

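Of 74 summary values under an alternative setting, 56 stayed close to the reported value and 18 moved. Close meant inside the counting interval for a diet ratio, and inside a set margin for a count, spread or correlation. The number of members higher in the periportal group went from 7 to 9 in chow with a mitochondrial limit of 15%. In the NASH diet library it went from 7 to 5. Both were called close, although single members turned. Among single members, the diet ratio of Orm3 was 0.41 with a mitochondrial limit of 15%. The zone ratio turned with that limit for Orm2 (0.47) and Orm3 (0.08) in chow and for Saa3 (-1.44), Saa4 (0.56), Hp (-0.03) and Hpx (-0.28) in NASH diet cells, and for Saa3 in thinned NASH diet cells (-1.09). No paired analysis was possible because each diet has 1 library. The median log2 ratio of the members was -4.08 with a mitochondrial limit of 15%, -3.52 per all UMIs, -3.57 with the members left out of the denominator and -3.42 as a mean over cells. Without Saa4 and Orm3, left out after seeing the data, it was -4.37. The log2 ratio of Saa1 plus Saa2 was -5.26 and -5.00 with mitochondrial limits of 15% and 80%, -5.09 per all UMIs, -5.14 without the members in the denominator and -5.06 in clusters built without the members. In the NASH diet library 7 members were higher in the periportal group by summed UMIs and 4 by the median of thinned cells, a measure at 0 for the members with few UMIs. Saa3, among the 7, was at 0.01 with an interval of -0.43 to 0.44. The share of all genes higher there was not worked out, their median ratio being -0.18, so nothing is read from these counts. Members in endothelial-like cells at 2-fold or more numbered 8 (chow) and 4 (NASH diet) per Alb UMI against hepatocyte-like cells. They numbered 3 and 0 per Apoa1 UMI, 4 and 0 by the median over cells, and 1 and 0 against low-UMI droplets; the cause was not tested. In chow Kupffer-like cells the number went from 0 to 6 without the cell that held most Alb UMIs.

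Depth limits Saa3, Orm2, Orm3 and Lcn2 in the NASH diet library, with 237, 668, 89 and 2380 UMIs in hepatocyte-like cells. Counting intervals leave out the spread between cells and mice.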
